A study of Mus musculus with 4 samples.

Results

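The HOX genes are the members described here: every gene in the deposited feature list named Hoxa, Hoxb, Hoxc or Hoxd followed only by a number. The rule found 40 of 31053 feature rows, which carry 39 symbols, 11 Hoxa, 10 Hoxb, 9 Hoxc and 9 Hoxd, because Hoxd4 is listed under 2 identifiers. Single-cell RNA came from tibial and femoral epiphyses, where cartilage, bone, vessels and marrow of the hindlimb meet. The mutant mice were Sox9fl:fl AcanCreERT2/+, which carry floxed Sox9, the master regulator of cartilage, and a tamoxifen-dependent Cre driven from Acan, the gene of the main cartilage proteoglycan. The control mice were wild type, and the labels give them no Cre or floxed allele. Mutant and wild-type mice were sampled at postnatal days 13 and 19 with 1 library for each combination, so no combination has a replicate, and the labels do not say how many animals a library holds. No source used here gives the tamoxifen schedule. The design text of the series names older mice, of adult age, and also a mutant of both Sox8 and Sox9; ages and genotypes given here are those of the sample labels, and the files do not settle the age.

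HOX genes encode homeodomain transcription factors that lie in 4 genomic clusters. Their order along a cluster matches where along the body axis each is used in the embryo, and those at the 5′ end of the Hoxa and Hoxd clusters also pattern the limb from shoulder or hip to digits. Genes of the Hoxc 5′ end are known for expression in hindlimb and not forelimb mesenchyme. Cells keep a HOX combination after development, so it can serve as a record of position and lineage, and Hoxa9 and Hoxb4 are also known for roles in blood stem and progenitor cells.

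Level is given as CPM, a gene's count of unique molecular identifiers (UMIs) over all UMIs of the class in a library, times 1000000. UMIs of this chemistry mark the 3′ ends of transcripts, and levels were not divided by gene length. The 4 libraries held 70507107 to 76080803 UMIs, and 6232 to 9718 cells per library were kept. Cells were clustered with the HOX genes left out, and a cluster was named "-like" from markers of the cell type. Pairs of libraries shared 10 to 13 cell barcodes, except the 2 mutant libraries, which shared 33. Sox9 itself stood at 201 CPM in mutant and 358 CPM in wild-type chondrocyte-like cells at day 13, and at 181 CPM in mutant and 457 CPM in wild-type cells at day 19. Acan was also lower in mutant cells at both ages. In cell sums of this kind, fewer molecules per cell and fewer cells that express a gene cannot be told apart.

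Promoters are shown for 4 members whose levels are described by class below: Hoxa11 and Hoxd9, with levels in chondrocyte-like and fibroblast-like cells, and Hoxb8 and Hoxb4, both higher in endothelial-like than in chondrocyte-like cells. They are RefSeq windows of 300 bases on GRCm38.p6, printed 5′ to 3′ on the gene's strand. Hoxa11 is at chr6:52245761-52246060 on the minus strand, Hoxd9 at chr2:74697513-74697812 on the plus strand, Hoxb8 at chr11:96281655-96281954 on the plus strand and Hoxb4 at chr11:96318017-96318316 on the plus strand. Capitals mark TTTAT, a short AT-rich core of the kind HOX proteins of the 5′ end prefer, and TGATNNAT, a joint site form of HOX proteins and their cofactors, both searched on both strands.
Hoxa11: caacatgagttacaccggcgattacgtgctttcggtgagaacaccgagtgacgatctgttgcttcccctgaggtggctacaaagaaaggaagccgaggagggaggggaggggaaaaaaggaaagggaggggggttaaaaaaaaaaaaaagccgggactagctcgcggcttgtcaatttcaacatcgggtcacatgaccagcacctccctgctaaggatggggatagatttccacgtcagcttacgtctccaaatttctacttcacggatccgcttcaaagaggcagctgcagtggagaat
Hoxd9: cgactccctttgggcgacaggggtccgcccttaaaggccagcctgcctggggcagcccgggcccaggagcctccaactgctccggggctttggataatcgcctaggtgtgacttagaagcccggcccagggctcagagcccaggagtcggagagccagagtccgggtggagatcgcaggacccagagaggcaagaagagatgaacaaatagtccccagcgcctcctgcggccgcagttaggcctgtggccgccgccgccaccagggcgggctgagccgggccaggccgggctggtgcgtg
Hoxb8: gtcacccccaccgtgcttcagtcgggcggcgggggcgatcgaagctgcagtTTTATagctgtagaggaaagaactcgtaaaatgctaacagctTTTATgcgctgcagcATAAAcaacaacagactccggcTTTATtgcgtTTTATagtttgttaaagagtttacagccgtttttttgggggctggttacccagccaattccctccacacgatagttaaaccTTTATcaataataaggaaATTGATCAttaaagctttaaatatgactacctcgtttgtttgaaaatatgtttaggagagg
Hoxb4: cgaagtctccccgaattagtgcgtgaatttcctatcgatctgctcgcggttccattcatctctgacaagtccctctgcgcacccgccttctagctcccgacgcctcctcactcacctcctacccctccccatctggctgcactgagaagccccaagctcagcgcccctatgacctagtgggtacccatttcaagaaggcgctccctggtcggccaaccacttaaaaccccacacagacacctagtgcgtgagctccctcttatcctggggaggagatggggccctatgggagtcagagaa
The Hoxb8 window held 6 matches of TTTAT and 1 match of TGATNNAT. It also held 2 matches of TATAAA, whose reverse complement contains TTTAT. The other 3 windows held no match, which says only that these letters are not in these windows. TTTAT was found in 9 of 24 HOX windows (37.5%), of 22 symbols in the table, and in 40.0% of all 32851 promoter windows. TGATNNAT was found in 4 of the 24 HOX windows (16.7%) and in 8.85% of all windows. The median number of CG pairs was 14.5 in the HOX windows and 7 in all windows.

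HOX UMIs made up 51626 of the 271194330 UMIs of the barcodes that passed the rule. Hoxd12 had no UMI in any library, and one of the 2 Hoxd4 identifiers had none. The sum over all HOX genes was 259 CPM in chondrocyte-like, 366 CPM in fibroblast-like, 157 CPM in osteoblast-like, 368 CPM in pericyte-like and 480 CPM in endothelial-like cells, against 25.5 CPM in blood-like cells. The classes also differed in which genomic cluster the UMIs came from.

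**Figure D1:**
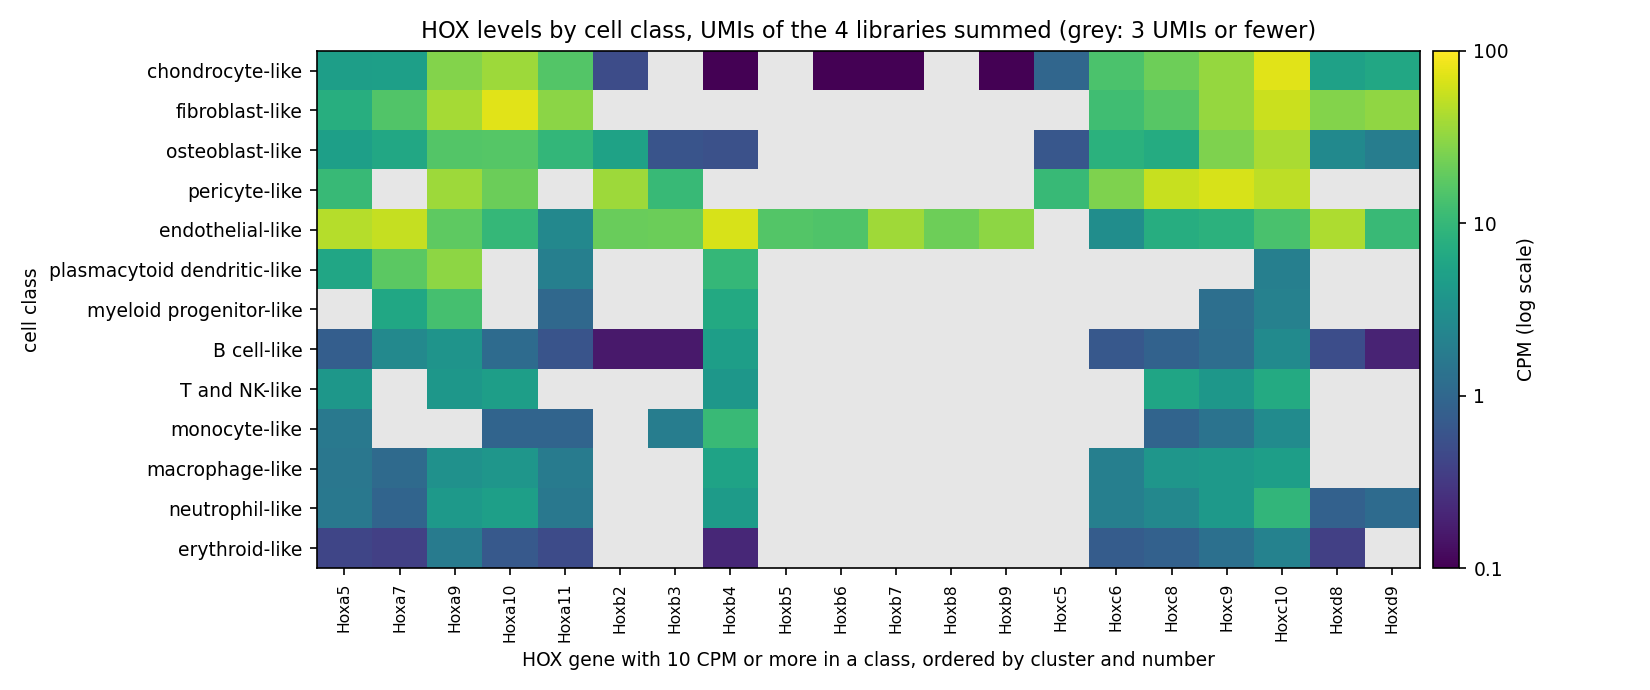
Level of each HOX gene with 10 CPM or more in at least 1 class (columns) in each cell class (rows), as CPM on a log colour scale with the UMIs of the 4 libraries summed. Grey marks 3 UMIs or fewer. The Hoxb columns are filled in the endothelial-like row, and the Hoxc and 5′ Hoxa columns are brightest in the skeletal and pericyte-like rows.

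In chondrocyte-like cells the HOX code was one of Hoxa and Hoxc. Hoxc genes gave 23164 of 39652 HOX UMIs (58.4%), Hoxa genes 36.3% and Hoxd genes 5.03%. The 10 Hoxb genes together gave 116 UMIs, 0.293% of the total. Of the 39 members, 7 reached 10 CPM in at least 1 library and 32 did not, Hoxd12 with no UMI among them.

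Hoxc10, a gene of the 5′ side of its cluster used in the lumbar region and hindlimb, stood highest in every library: 81.7 CPM in mutant and 58.8 CPM in wild-type cells at day 13, and 88.0 CPM in mutant and 70.5 CPM in wild-type cells at day 19. Its exons overlap those of the annotated Hoxc5 gene on the same strand, and the effect of this overlap on the counts of either gene was not tested. Hoxa10, which helps to pattern the thigh segment, stood at 45.7 CPM in mutant and 34.3 CPM in wild-type cells at day 13, and at 34.7 CPM in mutant and 23.9 CPM in wild-type cells at day 19. Hoxa11, needed for the middle limb segment that holds the tibia, stood at 16.3 CPM in mutant and 13.7 CPM in wild-type cells at day 13, and at 18.7 CPM in mutant and 15.7 CPM in wild-type cells at day 19. For Hoxc10, Hoxa10 and Hoxa11 both mutant values lay above both wild-type values, by a small margin for Hoxa10 and Hoxa11. CPM levels carry no scaling beyond library totals. Without such scaling, the median log2 change of all genes, mutant over wild type, was 0.19 in chondrocyte-like cells. Hoxa13, the gene of the hand and foot segment, was near absent at 0.594 CPM over all chondrocyte-like cells.

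The mid-cluster genes were less even. Hoxa9 stood at 28.8 CPM in mutant and 28.7 CPM in wild-type cells at day 13, and at 24.2 CPM in mutant and 26.6 CPM in wild-type cells at day 19. Hoxc9 stood at 32.3 CPM in mutant and 38.97 CPM in wild-type cells at day 13, and at 31.9 CPM in mutant and 23.0 CPM in wild-type cells at day 19. Both wild-type values lay outside the mutant pair, one above and one below. Hoxc8 stood at 19.3 CPM in mutant and 26.1 CPM in wild-type cells at day 13, and at 19.6 CPM in mutant and 17.4 CPM in wild-type cells at day 19. Hoxc6 stood at 18.7 CPM in mutant and 10.5 CPM in wild-type cells at day 13, and at 16.97 CPM in mutant and 9.996 CPM in wild-type cells at day 19, so that both mutant values lay above both wild-type values.

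**Figure D2:**
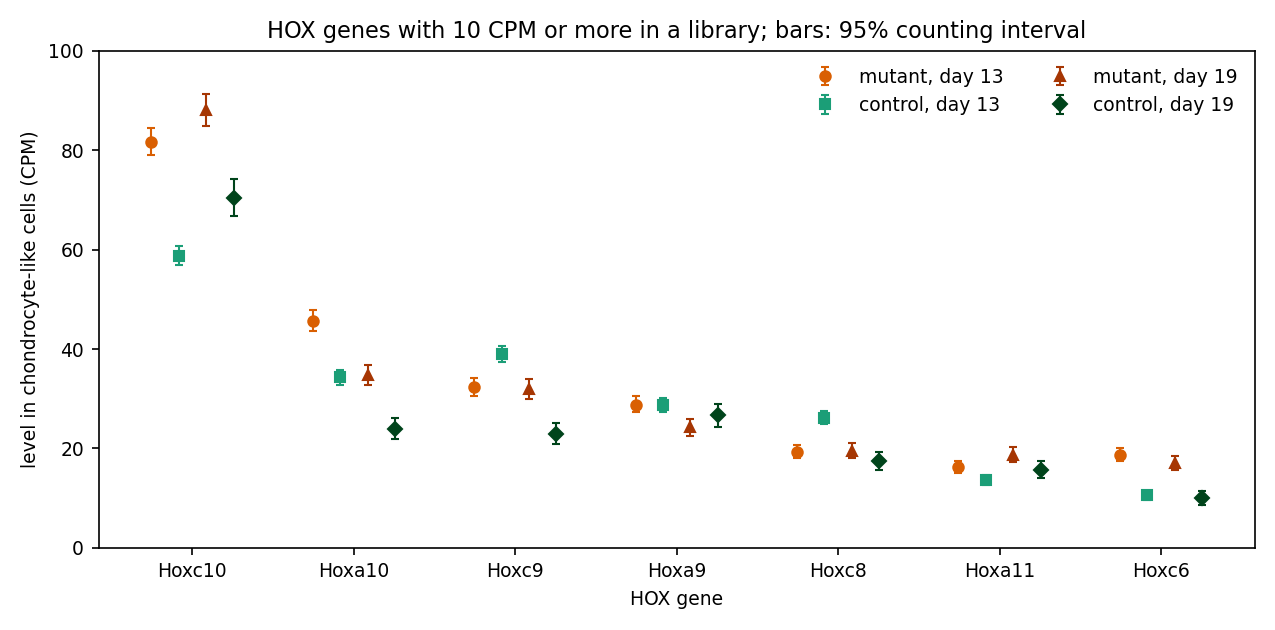
Level in CPM (vertical axis) of the 7 HOX genes with 10 CPM or more in a library, in chondrocyte-like cells of each of the 4 libraries, with 95% counting intervals as bars. Hoxc10 lies between 58.8 and 88.0 CPM, Hoxc6 is higher in both mutant libraries, and Hoxc9 and Hoxc8 change order between ages.

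Most of the HOX genes of chondrocyte-like cells had no call between mutant and wild type. Mutant was tested against wild type with edgeR's quasi-likelihood test on summed UMIs, with age as a second term, which leaves 1 residual degree of freedom and borrows the spread from other genes. The p-values thus measure how far genotype effects differ between ages, not the spread between mice. Of 22 HOX genes tested, 1 was higher and 0 were lower in the mutant at an adjusted p of 0.05, while 23.5% of all 15251 genes tested were called (12.6% higher and 10.9% lower). The median log2 change was 0.11 over the 22 HOX genes and 0.01 over all genes. With no scaling beyond library totals 2 HOX genes were higher, the median of all genes was 0.19, and the calls over all genes split into 3162 higher and 1119 lower in place of 1928 higher and 1655 lower. The members not tested were too low in these libraries.

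Hoxc6 was the HOX gene called, with a log2 fold change of 0.63 ± 0.14 (SE; adjusted p = 0.0163, edgeR). At day 13 the mutant over wild-type log2 ratio of plain CPM was 0.83 (95% counting interval 0.68 to 0.99), and at day 19 it was 0.76 (0.53 to 1.004). DESeq2 gave an adjusted p of 0.072. In the 5 chondrocyte-like clusters with 50 or more cells of every library the log2 change was 0.25 (adjusted p = 0.426, edgeR). Hoxc6 was at 2.59 CPM in cluster 6, led by C1qtnf3 and Il17b, which held 15 mutant and 859 wild-type cells at day 13, and 6 mutant and 229 wild-type cells at day 19. It was at 17.8 CPM in cluster 2, led by Myoc and Pi15, and at 20.9 CPM in cluster 17, led by Sfrp2 and Gal, both made mostly of mutant cells. How much of the genotype difference in Hoxc6 goes with this change in cell make-up was not tested.

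The remaining 21 tested HOX genes did not pass. The largest changes among the other 6 abundant genes were -0.32 ± 0.19 for Hoxc8 and 0.30 ± 0.13 for Hoxa10 (log2, SE), with adjusted p of 0.258 and 0.141 by edgeR. The adjusted p was 0.192 for Hoxc10, 0.725 for Hoxa11, 0.216 for Hoxa9 and 0.805 for Hoxc9 in the same edgeR test. Hoxc9 had a log2 ratio of -0.27 at day 13 (95% counting interval -0.37 to -0.17) and of 0.48 at day 19 (0.32 to 0.64). Hoxc8 had -0.44 at day 13 and 0.17 at day 19 (-0.02 to 0.36).

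Between days, no HOX gene was called in chondrocyte-like cells. Day 19 over day 13, with genotype in the model, gave 0 of 22 HOX genes by edgeR and 0 of 22 by DESeq2, with 0.17% of all genes called by edgeR. At an unadjusted p under 0.05, edgeR had 1258 and DESeq2 had 624 of all 15251 genes. Among the 22 HOX genes edgeR had 2 and DESeq2 had 1. The 2 were Hoxa10, with a log2 change of -0.50 ± 0.13, and Hoxc11, with -0.58 ± 0.24 (SE), named after their values were seen.

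Other classes held fewer HOX UMIs. By edgeR, mutant against wild type gave 0 calls among 5 HOX genes tested in B cell-like, 2 in erythroid-like, 9 in fibroblast-like, 1 in monocyte-like and 5 in neutrophil-like cells, where 1.22%, 2.23%, 0.691%, 0.433% and 3.56% of all genes were called. No HOX gene was high enough to test in macrophage-like cells. At an unadjusted p under 0.05 edgeR had 1 HOX gene in erythroid-like and 2 in neutrophil-like cells and none in the other classes. Of all genes it had 1096 of 7712 in erythroid-like and 1241 of 8540 in neutrophil-like cells. DESeq2 gave 0 HOX calls at an adjusted p of 0.05 in each class.

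Within the chondrocyte-like class, Hoxd9 and Hoxd8, mid-cluster genes of Hoxd, were at their highest in cluster 0, led by Prg4 (lubricin) and Cilp, genes of the superficial articular layer. Hoxd9 stood there at 18.3 CPM in mutant and 22.2 CPM in wild-type cells at day 13, and at 33.0 CPM in mutant and 27.9 CPM in wild-type cells at day 19. Over the 8 other chondrocyte-like clusters it ranged between 0.801 CPM in cluster 6 and 9.22 CPM in cluster 1. Hoxd8 stood in cluster 0 at 18.5 CPM in mutant and 19.8 CPM in wild-type cells at day 13, and at 24.4 CPM in mutant and 21.03 CPM in wild-type cells at day 19. These are levels of clusters found in the same cells, so no test was made between them.

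Levels of Hoxc8 and Hoxc6 also differed between clusters. Hoxc8 stood at 37.7 CPM in cluster 1 and 35.7 CPM in cluster 4, led by Matn1 and Frzb and by Sfrp5 and Ucma, but at 7.73 CPM in cluster 6 and 7.49 CPM in cluster 10, led by Col10a1 and Ihh, genes of hypertrophic and prehypertrophic cartilage. Hoxc6 likewise stood at 18.2 CPM in cluster 1 and 16.2 CPM in cluster 4, against 2.59 CPM in cluster 6 and 4.41 CPM in cluster 10. Hoxc10 was highest in cluster 0, at 104 CPM, and lowest in cluster 10, at 31.6 CPM. Median depth differed too, with 6930 UMIs per cell in cluster 0, 18394 in cluster 6 and 27024 in cluster 10, and its part in these levels was not tested.

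**Figure D3:**
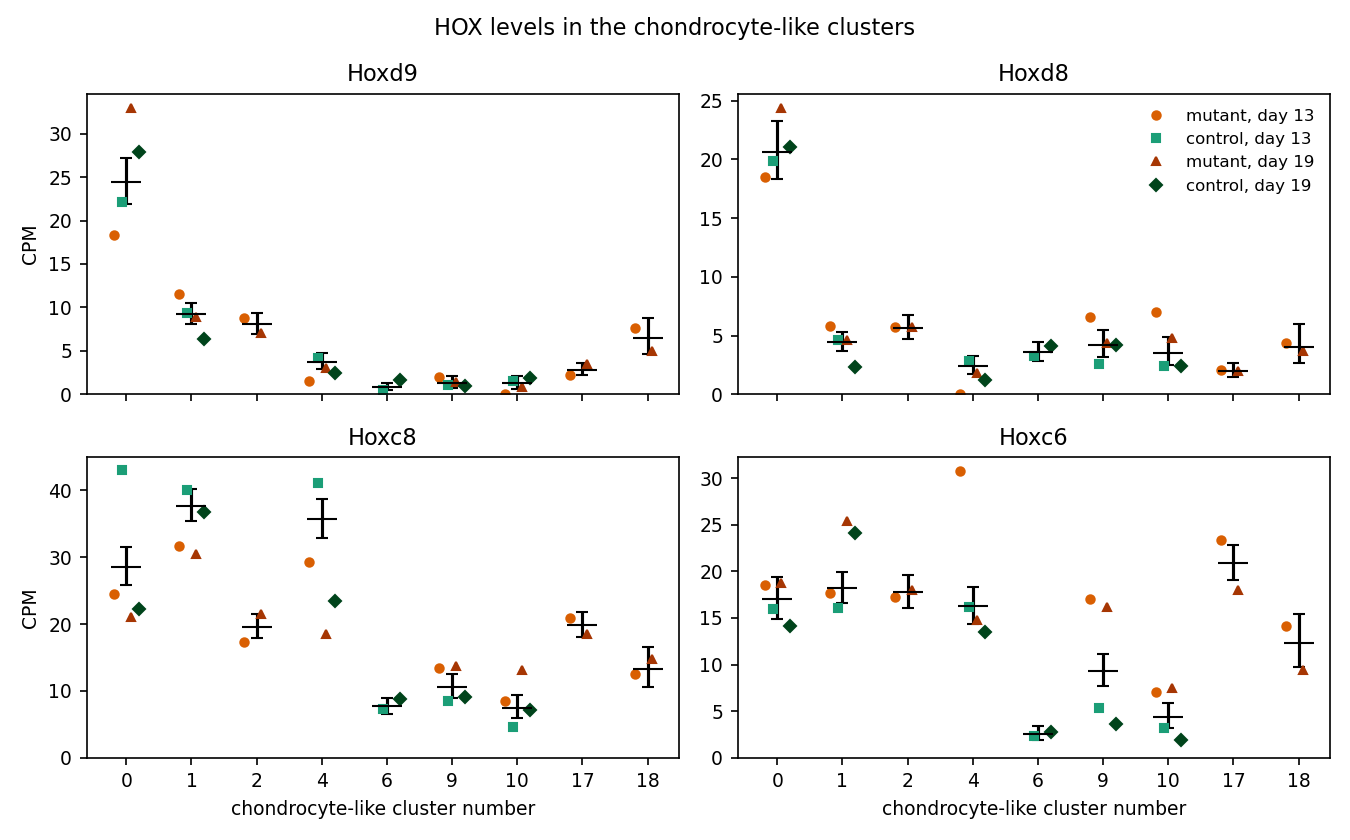
Level in CPM of Hoxd9, Hoxd8, Hoxc8 and Hoxc6 (panels) in the 9 chondrocyte-like clusters (horizontal axis, by number). Black dashes are the sum over libraries with 95% counting intervals, and coloured points are libraries with 50 or more cells in the cluster. Hoxd9 and Hoxd8 stand at 24.4 and 20.7 CPM in cluster 0 and below 10 CPM in the others.

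Fibroblast-like cells were led by Clec3b and Mfap5. The 7 genes at 10 CPM or more in a chondrocyte-like library were so here too, with Hoxa5, Hoxa7, Hoxd8 and Hoxd9 beside them. Hoxd genes gave 16.96% of their HOX UMIs. Hoxd9 stood at 27.7 CPM in mutant and 30.2 CPM in wild-type cells at day 13, and at 27.7 CPM in mutant and 45.6 CPM in wild-type cells at day 19. All 4 libraries were above the highest library of the chondrocyte-like class as a whole. Not all were above the day 19 levels of the chondrocyte-like cluster led by Prg4 and Cilp. Hoxa10 stood at 84.5 CPM in mutant and 69.5 CPM in wild-type cells at day 13, and at 64.0 CPM in mutant and 76.5 CPM in wild-type cells at day 19.

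Fibroblast-like over chondrocyte-like cells, tested with edgeR and library as a block, gave 5 higher and 2 lower of 20 HOX genes tested. Over all genes 37.5% were called, 15.2% higher and 22.4% lower. Some of the 20 genes, Hoxa13 among them, may pass the low-count filter only through the fibroblast-like sums, where they are high. The count of higher genes thus describes the genes that could be tested. Higher were Hoxa13, with a log2 fold change of 2.59 ± 0.56, Hoxd9, 1.84 ± 0.23, Hoxd8, 1.83 ± 0.25, Hoxa7, 1.14 ± 0.34, and Hoxa10, 0.60 ± 0.17 (SE). Lower were Hoxc10, with -0.87 ± 0.19, and Hoxc8, with -0.85 ± 0.23 (SE). These 2 calls were lost with no scaling beyond library totals, where the median of all genes was 0.39 in place of -0.11, and where calls over all genes split into 3933 higher and 1458 lower in place of 2148 and 3170. Hoxa11 was then also called higher. Hoxa7 lost its call without either mutant library (adjusted p = 0.129 and 0.0599 by edgeR), and Hoxc8 without either wild-type library (adjusted p = 0.119 and 0.0503). Cluster 20, led by Angptl7, Tnmd and Thbs4 and left unnamed, had Hoxa13 at 5.41 CPM, close to the 5.42 CPM of the fibroblast-like cluster.

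Osteoblast-like cells, led by Ifitm5 and Bglap, carried lower Hoxa and Hoxc levels and some Hoxb2, a 3′ gene of its cluster. They came mostly from mutant libraries, 1003 and 613 cells at days 13 and 19, against 27 and 20 wild-type cells. Hoxb2 stood at 4.53 CPM in mutant and 16.9 CPM in wild-type cells at day 13, and at 5.82 CPM in mutant and 25.6 CPM in wild-type cells at day 19, with 5 and 7 UMIs in the wild-type libraries. Over chondrocyte-like cells the summed level was 10.7-fold higher (95% counting interval 7.99 to 14.5). A test with a minimum of 20 cells per library in place of 50, chosen after the data were seen, gave 2 higher and 10 lower of 21 HOX genes, where 28.7% of all genes were called (11.5% higher and 17.2% lower). Hoxb2 and Hoxb3 were the 2 higher, and Hoxa9, Hoxa10, Hoxa11, Hoxc10, Hoxc8, Hoxc6, Hoxc4, Hoxd10, Hoxd9 and Hoxd8 the 10 lower. Some of the 21 genes, Hoxb3 among them, may pass the low-count filter only through the osteoblast-like sums, where they are high. The count of higher genes thus describes the genes that could be tested. DESeq2 gave 2 higher and 6 lower, where it called 1121 higher and 1771 lower of all 14177 genes. Without the day 13 mutant library the edgeR test made 3 calls of 17 HOX genes, where 1377 of all 13393 genes were called. Without the day 19 mutant library it made 4 of 20, where 1426 of all 13714 genes were called.

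Endothelial-like cells carried another HOX code, built on Hoxb. They were led by Cdh5, Plvap, Cldn5 and Emcn and counted 110 mutant and 146 wild-type cells at day 13, and 111 mutant and 28 wild-type cells at day 19. Hoxb genes gave 467 of their 967 HOX UMIs (48.3%) and Hoxc genes 67 (6.93%). Thinned to 2000 UMIs per cell, 32.3% of 297 endothelial-like cells had a Hoxb UMI (95% exact binomial interval from 27.0%), against 0.16% of 11866 chondrocyte-like cells. The interval pools the cells of 4 libraries, so it covers counting error and not the spread between libraries. The thinned shares cover fewer cells than the classes held. Without thinning the shares were 54.4% and 0.782%, at median depths of 3564 and 11023 UMIs. Erythroid-like cells, a class in which no Hoxb gene reached 1 CPM over all libraries, had a Hoxb UMI in 0.0762% of thinned cells and 0.18% without thinning, at a median depth of 6154 UMIs.

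Hoxb4, a gene of the middle of its cluster, stood in endothelial-like cells at 51.9 CPM in mutant and 81.8 CPM in wild-type cells at day 13, and at 54.8 CPM in mutant and 58.0 CPM in wild-type cells at day 19. Hoxb7 stood at 34.0 CPM in mutant and 42.7 CPM in wild-type cells at day 13, and at 32.9 CPM in mutant and 38.7 CPM in wild-type cells at day 19. Hoxb9, a gene nearer the 5′ end, stood at 43.0 CPM in mutant and 21.3 CPM in wild-type cells at day 13, and at 37.3 CPM in mutant and 25.8 CPM in wild-type cells at day 19. In each of these 3 genes every library was above every chondrocyte-like library. Hoxb8, whose promoter is printed above, ranged from 19.0 to 25.1 CPM over the libraries, Hoxb3 from 15.4 to 35.1 CPM, Hoxb2 from 10.96 to 24.9 CPM, Hoxb5 from 14.2 to 19.3 CPM and Hoxb6 from 6.57 to 20.2 CPM.

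Outside Hoxb the endothelial-like class also held Hoxa7, Hoxa5 and Hoxd8. Hoxa7 stood at 51.9 CPM in mutant and 60.5 CPM in wild-type cells at day 13, and at 48.2 CPM in mutant and 51.6 CPM in wild-type cells at day 19. Hoxa5, known as a regulator of vessel growth, stood at 25.1 CPM in mutant and 47.4 CPM in wild-type cells at day 13, and at 63.5 CPM in mutant and 64.4 CPM in wild-type cells at day 19. Hoxd8 ranged from 35.1 to 51.0 CPM. Hoxa11 was at 2.48 CPM and Hoxc10 at 13.9 CPM over the 4 libraries.

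Endothelial-like over chondrocyte-like cells, with the 20-cell minimum chosen after the data were seen, gave 13 higher and 9 lower of 30 HOX genes by edgeR, where 44.1% of all genes were called (18.4% higher and 25.7% lower). With no scaling it gave 14 higher and 8 lower, with Hoxa4 gained and Hoxa9 lost (adjusted p = 0.128, edgeR), the median of all genes was 0.53 in place of -0.13, and the calls over all genes split into 4904 higher and 1770 lower in place of 2622 and 3659. The 13 higher were Hoxb2 to Hoxb9, Hoxa2, Hoxa3, Hoxa5, Hoxa7 and Hoxd8. The 9 lower were Hoxa9, Hoxa10, Hoxa11, Hoxc4, Hoxc6, Hoxc8, Hoxc9, Hoxc10 and Hoxc11. Some of the 13, Hoxb9 among them, pass the low-count filter only through the endothelial-like sums, where they are high. Their count thus describes the genes that could be tested. Hoxb4 had 132 endothelial-like and 7 chondrocyte-like UMIs, a 1435-fold ratio of CPM (95% counting interval 677 to 3639). Hoxb7 had 76 endothelial-like and 8 chondrocyte-like UMIs, a 723-fold ratio (349 to 1735), and Hoxb9 had 63 and 6, a 799-fold ratio (347 to 2260). Hoxa7 was higher by 2.79 ± 0.25 and Hoxd8 by 2.30 ± 0.27, while Hoxc10 was lower, with -3.08 ± 0.29, as was Hoxa11, with -3.32 ± 0.46 (log2, SE). Hoxd9, a mid-cluster gene, did not pass, with -0.01 ± 0.45, and 0.64 with no scaling.

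Cartilage RNA is also read in endothelial-like cells. Col2a1, the main cartilage collagen, stood there at 9.19% of its chondrocyte-like level. Hoxc10 stood at 19.1% and Hoxa11 at 15.8% of their chondrocyte-like levels, whereas Hoxa7 stood at 1110% and Hoxd8 at 822%. The part that free RNA has in the lower values was not tested.

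**Figure D4:**
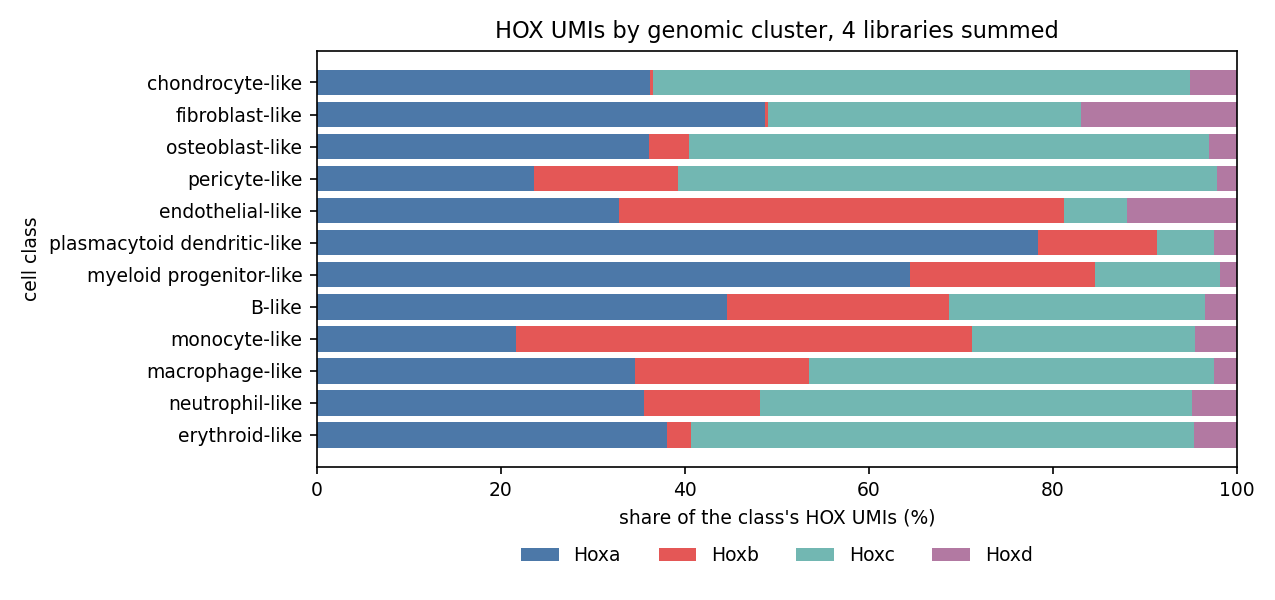
Share of each class's HOX UMIs (horizontal axis, percent) that came from each of the 4 genomic HOX clusters, with the UMIs of the 4 libraries summed. Hoxb takes 48.3% in endothelial-like cells and 0.293% in chondrocyte-like cells.

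Pericyte-like cells, the contractile cells on vessel walls, were led by Rgs5, Myh11 and Acta2 and counted 70 cells, with 10 to 26 per library. Their HOX UMIs came to 58.6% from Hoxc and to 15.7% from Hoxb. Hoxc9 stood at 50.6 CPM in mutant and 82.0 CPM in wild-type cells at day 13, and at 71.0 CPM in mutant and 67.6 CPM in wild-type cells at day 19. Hoxb2 stood at 14.5 CPM in mutant and 71.8 CPM in wild-type cells at day 13, and at 42.6 CPM in mutant and 27.0 CPM in wild-type cells at day 19, on 2 to 7 UMIs per library. With so few cells no test was made.

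In blood-like cells as a whole no HOX gene reached 10 CPM in any library. Skeletal-like (chondrocyte, osteoblast and fibroblast-like) over blood-like cells gave 22 higher and 1 lower of 24 HOX genes tested by edgeR with library as a block, where 72.4% of all genes were called, 37.8% higher and 34.6% lower. DESeq2 gave 22 higher and 2 lower, Hoxb3 being the second. With no low-count filter it was 23 higher, 1 lower and 14 not passed of 38 by edgeR. Many of these genes pass the filter only through the skeletal-like sums, where they are high, so the count describes the genes that could be tested. Hoxa10 was higher by 4.11 ± 0.37 and Hoxc10 by 4.16 ± 0.36 (log2, SE). The lower one was Hoxb4, with -4.92 ± 0.49 (adjusted p = 0.000102, edgeR), and Hoxb3 did not pass, with -1.76 ± 0.81 (adjusted p = 0.0861, edgeR).

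In blood-like cells Col2a1 stood at 4.89% of its chondrocyte-like level over the 4 libraries. Hoxc10 stood at 5.1%, Hoxa10 at 4.85%, Hoxc9 at 5.74% and Hoxa11 at 5.81% of their own. By library, Col2a1 was at 9.78% in mutant and 11.8% in wild-type cells at day 13, and at 5.87% in mutant and 2.64% in wild-type cells at day 19. Hoxc10 was at 9.28% in mutant and 8.4% in wild-type cells at day 13, and at 5.97% in mutant and 1.93% in wild-type cells at day 19. Hoxc9 and Hoxa11 reached 13.9% and 17.4% in single libraries of day 13. Col2a1 was lower than that in the same libraries. The part of free RNA in these levels was not tested. Hoxa9 was above Col2a1 in every library, with 16.3% in mutant and 19.8% in wild-type cells at day 13, and 15.8% in mutant and 17.01% in wild-type cells at day 19. Hoxa7 stood at 42.3% to 59.4%.

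**Figure D5:**
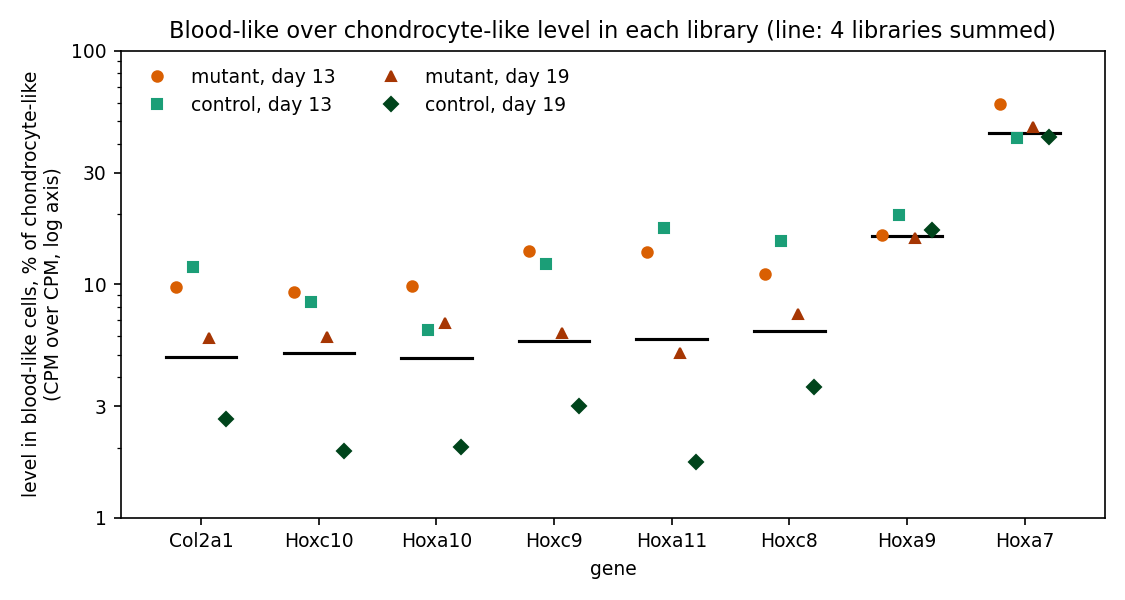
Level of Col2a1 and 7 HOX genes in blood-like cells as a percent of the level in chondrocyte-like cells of the same library (vertical log axis), with 1 point per library and a line for the 4 libraries summed. Hoxc10, Hoxa10, Hoxc9 and Hoxa11 lie at 4.85% to 5.81% beside Col2a1 at 4.89%, and Hoxa9 and Hoxa7 lie at 16.0% and 44.6%.

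Hoxa9 and Hoxa7 also differed among the blood-like clusters. In plasmacytoid dendritic cell-like cells, led by Siglech, Hoxa9 stood at 32.0 CPM in mutant and 67.4 CPM in wild-type cells at day 13, and at 21.6 CPM in mutant and 35.3 CPM in wild-type cells at day 19, on 6 to 27 UMIs. Hoxa7 stood there at 17.7 CPM over the 4 libraries, 360% of its chondrocyte-like level, with no UMI in the 17 wild-type cells of day 13, while Hoxc10 stood at 1.97 CPM. Myeloid progenitor-like cells, led by Elane, Prtn3 and Mpo, had Hoxa9 at 11.3 CPM in mutant and 8.43 CPM in wild-type cells at day 13, and at 9.55 CPM in mutant and 16.9 CPM in wild-type cells at day 19. Cluster 27, led by Prss34, Mcpt8, Pf4 and Ppbp and left unnamed because it mixed markers of basophils and megakaryocytes, had Hoxa9 at 32.2 CPM and Hoxa7 at 11.4 CPM. Hoxa7 was at 6.21 CPM in myeloid progenitor-like cells. Cluster 16, a B cell-like cluster led by Vpreb1, Dntt and Igll1 of early B cells, had Hoxa9 at 7.47 CPM. Hoxa9 stood at 2.13 CPM in cluster 13 and 1.43 CPM in cluster 24, which are led by Igkc and by Ms4a1. By library, cluster 16 had Hoxa9 at 2.07 CPM in mutant and 4.95 CPM in wild-type cells at day 13. At day 19 it had 2.91 CPM in mutant and 13.1 CPM in wild-type cells.

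Hoxb4 had another spread over blood-like classes. It stood in monocyte-like cells at 7.8 CPM in mutant and 4.47 CPM in wild-type cells at day 13, on 6 and 2 UMIs. At day 19 it stood at 10.7 CPM in mutant and 14.9 CPM in wild-type cells, on 19 UMIs each. It was at 9.85 CPM in plasmacytoid dendritic cell-like, 6.62 CPM in myeloid progenitor-like and 8.57 CPM in cluster 24 cells. In erythroid-like cells it was at 0.214 CPM on 4 UMIs. Endothelial-like over blood-like cells, with the 20-cell minimum, gave 17 higher and 0 lower of 21 HOX genes by edgeR, where 22.9% of all genes were higher, 27.2% lower and 50.1% called in all. With no scaling the calls over all genes split into 4156 higher and 1940 lower in place of 2857 and 3381, the median of all genes was 0.39 in place of -0.08, and 18 HOX genes were higher, with Hoxc10 gained. Hoxb4 was among them with 3.53 ± 0.29, Hoxa7 with 4.002 ± 0.27 and Hoxa9 with 1.46 ± 0.41 (log2, SE). Hoxb9 had 63 endothelial-like UMIs and 0 blood-like UMIs, at least 742-fold higher against a floor of 3 UMIs over the group. Some of the 21 genes, Hoxb9 among them, pass the low-count filter only through the endothelial-like sums, where they are high. The count of higher genes thus describes the genes that could be tested.

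The other genes of limb position give the setting for the HOX code. Pitx1, the hindlimb selector, stood in chondrocyte-like cells at 91.9 CPM in mutant and 74.8 CPM in wild-type cells at day 13, and at 88.9 CPM in mutant and 78.2 CPM in wild-type cells at day 19. Its partner Tbx4 stood at 2.46 to 3.75 CPM over the libraries, and the forelimb gene Tbx5 at 2.46 to 5.29 CPM. Of 14 limb position factors tested against 17 listed, 4 were higher and 1 was lower in mutant chondrocyte-like cells by edgeR, where 12.6% of all genes were higher and 10.9% lower. All 14 were higher in skeletal-like than in blood-like cells, where 37.8% of all genes were higher. Some of the 14 may pass the low-count filter only through the skeletal-like sums, so the count describes the genes that could be tested. Higher in mutant chondrocyte-like cells were the T-box genes Tbx2, with a log2 change of 1.69 ± 0.32, and Tbx3, 1.64 ± 0.23. So were Lhx9, 1.37 ± 0.35, and Hand2, 1.09 ± 0.19, while Msx2 was lower, with -1.26 ± 0.31 (SE). DESeq2 called 3 higher and 0 lower, and in the 5 shared clusters 1 was higher. Of all genes, DESeq2 called 1234 higher and 1140 lower of 15251, and 396 of 13150 were higher in the shared clusters. Tbx5 did not pass, with 0.73 ± 0.23 (adjusted p = 0.0568, edgeR).

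The TALE cofactors, homeodomain proteins such as MEIS that bind DNA beside HOX proteins, gave 4 higher and 0 lower of 9 tested in mutant over wild-type chondrocyte-like cells by edgeR, where 23.5% of all genes were called. Among them were Meis3, with 1.20 ± 0.32, Meis1, with 1.03 ± 0.26, and Meis2, with 0.81 ± 0.24 (log2, SE). DESeq2 called 0 of the 9, and the 5 shared clusters gave 0. Of all genes, DESeq2 called 2374 of 15251 and the shared clusters gave 731 of 13150. Fibroblast-like over chondrocyte-like cells gave 3 higher, Meis3 and Meis2 among them, and 0 lower, where 37.5% of all genes were called. Skeletal-like over blood-like cells gave 3 higher and 3 lower, where 72.4% were called.

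Chromatin regulators known to keep HOX genes on or off, members of the Polycomb and Trithorax groups and their partners, gave 2 higher and 0 lower of 21 tested in mutant chondrocyte-like cells by edgeR, a smaller share than the 23.5% called among all genes. Among them was the Polycomb subunit Cbx6, with 0.90 ± 0.13 (log2, SE). The median log2 change of the list was 0.13. Of 4 HOX-cluster non-coding RNAs tested of 9 listed, 1 was lower, Hotairm1, with -0.64 ± 0.16 (log2, SE), a call lost with no scaling (adjusted p = 0.0825, edgeR), and 0 were higher. The use of strand in counting was not found in the labels, and the effect of overlap between antisense RNAs and genes on these counts was not tested. DESeq2 called 1 of the 21 chromatin regulators and 0 of the non-coding RNAs, and the 5 shared clusters gave 0 of either list. Those 2 fits called 2374 of 15251 and 731 of 13150 of all genes. In skeletal-like over blood-like cells 5 of 22 chromatin regulators were higher and 11 lower, a share near the 72.4% of all genes. All 3 non-coding RNAs tested were higher, where 37.8% of all genes were. These RNAs may pass the low-count filter only through the skeletal-like sums, so their count describes the RNAs that could be tested.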

How the data were processed

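Single-cell RNA was measured in 4 libraries of dissociated tibial and femur epiphyses with Chromium version 3 chemistry, per the labels' protocols. The authors deposited raw counts, UMIs for each gene in each barcode, made with Cell Ranger 3.1.0 per the file headers and on mm10 per the submitters' processing notes, which also name Seurat 3 with no role given. No other upstream step was found in the labels. The lowest barcode held 500 UMIs.

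A barcode was kept if it had at least 500 genes and no more than 15% of UMIs from mitochondrial genes. Doublets above a Scrublet score of 0.25 were removed (82 to 227 of those scored per library); the automatic thresholds had not worked, and this one was chosen after that was seen. Cells were clustered with scanpy 1.11.5 and igraph 0.11.9 on 2000 variable genes without the HOX genes and the other lists, 30 components and 15 neighbours, giving 31 clusters. Unnamed or mixed clusters held 2.49% to 5.51% of kept cells per library.

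UMIs were summed per class and library and tested by quasi-likelihood in edgeR 4.0.16 (with limma 3.58.1 under R 4.3.3; TMM, filterByExpr, Benjamini-Hochberg adjustment over all genes at 0.05), with 50 cells per library as the minimum; DESeq2 1.42.0 was an alternative. Plain CPM ratios, levels and shares carry exact 95% intervals, which cover counting error only; a floor is 3 UMIs. The edgeR fit was tested on simulated data with 200 changed genes and the same spread for all genes. For mutant over control chondrocyte-like cells 90% of 2-fold and 100% of 4-fold changes were recovered. For skeletal-like over blood-like cells it was 68% and 100%, and for fibroblast-like over chondrocyte-like cells 35.4% and 79.6%. Genes of low count were not among those changed, so recovery for them was not tested.

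Members with 10 CPM or more in a library are given by library and the others by counts and ranges; lists name up to 4 members each way that passed. Ages and genotypes follow the sample labels. Coordinates are from GENCODE M21 (GRCm38), which lists 39 of the 40 rows; 6 rows overlap exons of another listed gene on the same strand and 9 on the other strand. The members and lists were chosen with earlier results of these data known. Results of some single genes are not reported here.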

Additional observations from a re-analysis of the deposited data

Results flagged for a closer look

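Hoxc9 in chondrocyte-like cells had a mutant over wild-type log2 ratio of -0.27 at day 13 and of 0.48 at day 19, so the libraries moved in opposite directions and both 95% counting intervals lay off 0. The difference between the ages was not tested, since each age has 1 library per genotype. In the 5 clusters with 50 or more cells of every library the ratios were -0.54 at day 13 and 0.20 at day 19, and the interval at day 19 (-0.02 to 0.41) then held 0.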

How the results depend on the processing

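No paired analysis was possible because the labels give no replicate numbers that pair mutant with wild-type libraries; comparisons of classes within libraries carry the library as a block, and the genotype test has age as a term. Leaving out 1 library leaves the genotype and age tests no residual degrees of freedom, so those have no such values. The count of HOX genes called by genotype in chondrocyte-like cells, 1, was 0 with DESeq2, 0 with all skeletal-like cells, 0 in the shared clusters, 2 with cells thinned to 2000 UMIs (1 higher, Hoxc6, and 1 lower, Hoxc8, of 14 tested) and 2 with no scaling (both higher, Hoxc6 and Hoxa10). Over all genes the calls were 3583 of 15251 in the main test, 2374 of 15251 with DESeq2 and 731 of 13150 in the shared clusters. They were 3687 of 15783 with all skeletal-like cells, 2509 of 11922 when thinned and 4281 of 15251 with no scaling. In neutrophil-like cells 1 HOX gene was called with no low-count filter, where 497 of all 16986 genes were called. Thinning gave 15 calls in place of 23 for skeletal-like over blood-like cells, with 15 HOX genes tested in place of 24, and 4 in place of 7 for fibroblast-like over chondrocyte-like cells, with 11 tested in place of 20. Without 1 library each, the calls ranged from 21 to 22 for skeletal-like over blood-like, 6 to 6 for fibroblast-like and 20 to 22 for endothelial-like over chondrocyte-like, 14 to 18 for endothelial-like over blood-like and 3 to 13 for osteoblast-like over chondrocyte-like cells.

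The log2 change by genotype turned round for uncalled genes: Hoxa11 was at -0.067 with all skeletal-like cells and -0.0024 when thinned, Hoxc10 at -0.0038 when thinned and Hoxc9 at 0.092 with no scaling. The summed HOX level of blood-like cells, 25.5 CPM, was 31.8 CPM with doublets kept and 28.1 CPM with 1000 genes per barcode. The share of cells with a HOX UMI at 2000, 1000 and all UMIs was 40.1%, 23.9% and 86.2% in chondrocyte-like, 50.5%, 28.8% and 85.8% in fibroblast-like, 55.6%, 33.7% and 71.1% in endothelial-like and 1.45%, 0.975% and 4.47% in erythroid-like cells. Depth limits the HOX genes outside cartilage most, where many had fewer than 10 UMIs in a library. The comparisons with a minimum of 20 cells and the doublet threshold were chosen after seeing the data.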
